A study of Homo sapiens with 12 samples.

Results

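The 42 genes described here code for hydrolases and other proteins of the lysosomal lumen. By class they are 13 proteases, 14 glycosidases (AGA, an amidase, counted among them), 5 sulfatases, 8 lipid enzymes or cofactors, 1 phosphatase and 1 nuclease. They were chosen by name from a list of such genes, with earlier results of these data known, and each was taken at the row of its symbol with the highest mean, which gave 42 of the 53361 rows of the gene table. Messenger RNA was measured by RNA sequencing in hTERT-RPE1, a line of human pigment epithelium from the retina that telomerase keeps dividing. The 12 libraries fell into 4 groups of 3. In the first group cells received 0.5 µM reversine, an inhibitor of the spindle checkpoint kinase MPS1 that causes chromosome missegregation, for 24 h, and were washed and collected 48 h after that. The second group received 0.1 µM bafilomycin A1 (BafA1), an inhibitor of the vacuolar proton pump that acidifies lysosomes, for 6 h. The third received 1 µM MG132, a proteasome inhibitor, for 24 h. The fourth was untreated (control), and the labels give it no vehicle and no time. The series asks how stresses that follow aneuploidy bear on degradation by autophagy. The treatments differ in length as well as in agent, so a difference between them cannot be assigned to either. The labels do not state whether separate cultures stand behind the 3 libraries of each group, and p-values therefore cover the spread among libraries only. All libraries come from 1 line, and in such bulk samples fewer cells of a type and less RNA per cell cannot be told apart.

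Lysosomes are acidic compartments in which material delivered by endocytosis and autophagy is broken down. Most soluble hydrolases are made in the endoplasmic reticulum, receive a mannose phosphate tag in the Golgi apparatus and are carried to the lysosome by mannose phosphate receptors. Many of the enzymes take apart 1 kind of bond, and loss of some single ones leads to storage of the substrate, as in the lysosomal storage diseases. Many of these genes are known targets of the transcription factors TFEB, TFE3 and MITF, which bind an E-box core with the letters CACGTG in their promoters and respond to lysosomal and nutrient stress.

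Promoter windows from RefSeq (GRCh38.p14), running from 250 bases before to 50 bases after a gene's start, were found for 30 of the 42 members. CACGTG, which reads the same on both strands, occurred in windows of 8 of these 30 genes (26.7%), against 2396 of all 27305 genes with a window (8.77%). The 8 genes were ARSB, CTSA, CTSD, CTSF, GAA, GALNS, NEU1 and SCPEP1. The longer palindrome TCACGTGA, which contains CACGTG, was in 4 of the 30 (13.3%), against 1.18% of all genes. Its extension GTCACGTGAC was in 2 of the 30 (6.67%), GAA and GALNS, against 0.421% of all genes. The 250 bases before the start are printed for 6 members. GAA, GALNS, CTSA and SCPEP1 hold a longer palindrome, and NEU1, SCPEP1 and GALNS rose after reversine or MG132. GLA, which has no match, had the largest difference after MG132. Capitals mark each CACGTG with those flanking bases that extend it to one of the longer palindromes. The windows are chr17:80101331-80101580 (plus strand) for GAA, chr16:88856948-88857197 (minus strand) for GALNS, chr20:45891085-45891334 (plus strand) for CTSA, chr17:56977881-56978130 (plus strand) for SCPEP1, chr6:31862822-31863071 (minus strand) for NEU1 and chrX:101407926-101408175 (minus strand) for GLA. All are written 5′ to 3′ on the gene's strand.
GAA: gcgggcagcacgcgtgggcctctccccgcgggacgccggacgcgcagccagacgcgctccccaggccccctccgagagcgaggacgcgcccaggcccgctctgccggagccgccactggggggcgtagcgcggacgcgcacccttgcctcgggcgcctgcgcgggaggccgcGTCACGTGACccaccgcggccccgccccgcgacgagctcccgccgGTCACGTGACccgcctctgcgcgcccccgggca
GALNS: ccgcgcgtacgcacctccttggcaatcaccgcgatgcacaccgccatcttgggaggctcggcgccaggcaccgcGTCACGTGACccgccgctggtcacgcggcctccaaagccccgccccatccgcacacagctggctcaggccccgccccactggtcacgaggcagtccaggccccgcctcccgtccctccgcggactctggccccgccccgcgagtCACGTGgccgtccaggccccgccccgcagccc
CTSA: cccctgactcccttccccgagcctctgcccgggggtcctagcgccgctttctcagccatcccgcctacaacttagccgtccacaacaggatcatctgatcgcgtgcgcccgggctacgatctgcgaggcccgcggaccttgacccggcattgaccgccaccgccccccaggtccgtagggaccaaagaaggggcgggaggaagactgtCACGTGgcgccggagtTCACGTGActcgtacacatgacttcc
SCPEP1: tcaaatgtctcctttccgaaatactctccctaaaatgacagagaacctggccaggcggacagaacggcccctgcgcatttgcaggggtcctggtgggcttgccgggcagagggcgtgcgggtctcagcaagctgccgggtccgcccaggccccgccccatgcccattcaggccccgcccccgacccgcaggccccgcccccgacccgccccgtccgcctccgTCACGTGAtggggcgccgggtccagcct
NEU1: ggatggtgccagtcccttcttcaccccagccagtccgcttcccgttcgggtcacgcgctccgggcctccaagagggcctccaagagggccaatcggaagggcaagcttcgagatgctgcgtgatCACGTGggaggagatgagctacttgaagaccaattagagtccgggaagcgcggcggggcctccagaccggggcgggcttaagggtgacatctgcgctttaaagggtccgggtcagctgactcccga
GLA: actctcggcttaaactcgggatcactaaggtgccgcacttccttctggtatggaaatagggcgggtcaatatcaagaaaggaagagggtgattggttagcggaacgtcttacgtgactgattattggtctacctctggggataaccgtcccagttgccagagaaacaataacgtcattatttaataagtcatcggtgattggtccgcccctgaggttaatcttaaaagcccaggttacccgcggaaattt

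Counted from the start, the capitals of GAA begin at bases -78 and -33, those of GALNS at -176 and -32, those of CTSA at -42 and -26, that of SCPEP1 at -28 and that of NEU1 at -126. The match of SCPEP1 is TCACGTGA, while that of NEU1 is the bare core. GLA holds none of these letters in the whole window of 300 bases. A match describes the letters of the window and is not evidence of binding.

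The deposited values were taken as FPKM, although the header names no unit. FPKM divide fragments by the length of the transcript and by the mapped fragments of the library. The number of reads behind a value is unknown, which leaves no counting interval. Depth relative to the deepest library, taken from the lowest values per length, was 0.72 to 0.88 in reversine libraries, 0.59 to 0.75 in BafA1 libraries, 0.69 to 0.91 in MG132 libraries and 0.80 to 1 in controls. In 4 libraries (reversine 1, BafA1 3, MG132 2 and MG132 3) values fell with the GC content of the transcript, with slopes of -0.43 to -0.079 (log2 per 10 percentage points), while in the other 8 the slopes were 0.071 to 0.193. MG132 2, MG132 3 and control 3 listed 10150, 9689 and 9118 rows at exactly 0, against 889 to 4240 in the rest. Mitochondrial genes held 11.2% of the summed FPKM in reversine 1, 8.2% in MG132 2 and 20.4% in MG132 3, against 2.7% to 5.6% in the other 9 libraries, and the part of this share in the results was not tested. Of 13 markers of retinal pigment epithelium, 8 reached 1 FPKM in every library after reversine, 8 after BafA1, 9 after MG132 and 8 in controls. The genes counted differed between groups, since RLBP1 was at 0.86 FPKM in reversine 1 and BEST1 at 0.96 FPKM in BafA1 1. RPE65, which defines the mature tissue, was at 0.04 to 0.06 FPKM throughout, and TYR, DCT and TTR stayed under 1 FPKM. Some low values followed depth, since TTR was at 0.41 FPKM in control 3, the deepest library, and at 0.64 FPKM in BafA1 2, the shallowest. A value near 1 FPKM therefore does not by itself show that a marker was expressed. KRT8 and KRT18 made up most of the summed marker level, which was 1300 to 1580 FPKM after reversine, 1150 to 1280 after BafA1, 481 to 736 after MG132 and 1240 to 1410 in controls.

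In untreated cells the members spanned from 0.573 FPKM (CTSO) to 2298 FPKM (CTSD), with a median of 35.1 FPKM. Of the 42, 6 averaged over 100 FPKM (CTSD, PSAP, CTSB, NPC2, CTSA and CTSC), 28 lay from 10 to 100 FPKM, and 8 were lower. CTSD, the main aspartic protease of the lysosome, held 36.4% of the members' summed FPKM in controls, and PSAP, the precursor of the saposins that present lipids to their hydrolases, held 16.7%. After reversine the share of CTSD was 32.5% and that of PSAP 28.5%. The group with the highest mean was reversine for 18 members, BafA1 for 3, MG132 for 13 and control for 8. The lowest mean was found after reversine for 0 members, after BafA1 for 6, after MG132 for 19 and in controls for 17. Such counts were not made over all rows, so whether they are particular to the members is unknown.

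**Figure D1:**
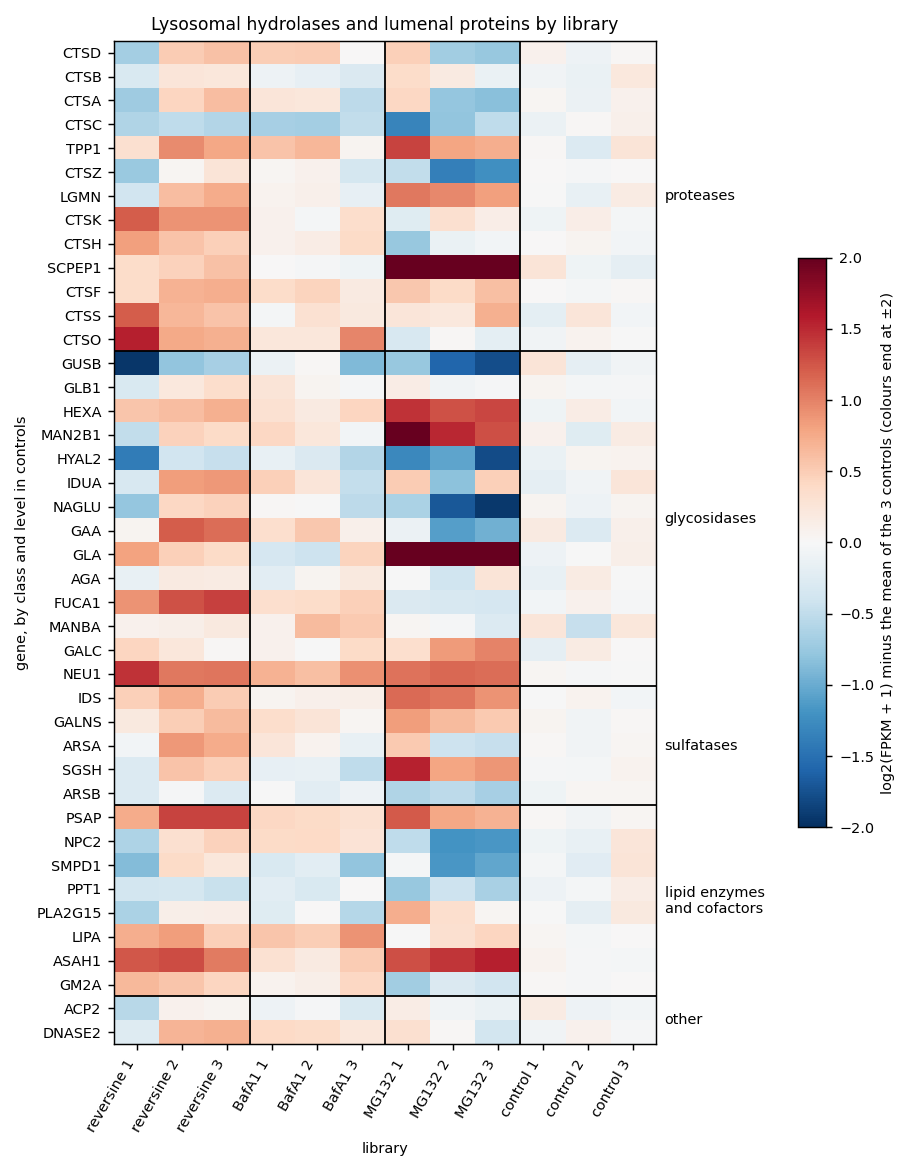
Each row is a member, ordered by class and by level in controls, and each column a library; colour gives log2(FPKM + 1) minus the mean of the 3 controls, with red above, blue below and colours ending at ±2. SCPEP1 and GLA are dark red in all 3 MG132 libraries, while reversine 1 differs from reversine 2 and 3 for members such as CTSD, CTSA and GUSB.

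After reversine 7 members rose and 0 fell. Differences were tested with limma on log2(FPKM + 1) over the 30712 rows that reached 1 FPKM in 3 or more libraries, and called at a Benjamini-Hochberg adjusted p under 0.05. The 7 called members were 16.7% of the 42, while 2.09% of all rows tested were called (0.801% higher and 1.29% lower). They were ASAH1, NEU1, FUCA1, PSAP, CTSK, HEXA and IDS, with log2 differences from 0.57 to 1.2. Log2 differences below are treated minus control, on the log2(FPKM + 1) scale, with ± 1 standard error, and the comparisons with control share the same 3 controls. Of the 42 members, 33 had a log2 difference above 0, and their median was 0.35, against 0.09 over all rows tested. All 3 reversine libraries lay above all 3 controls for 17 members and below for 4, against 9.97% of all rows tested above and 10.1% below (20.1% without overlap). An unadjusted p under 0.05 was found for 20 members, beside 11.8% of all rows. CTSO is counted among these 20 and among the 17, but it passed the minimum of 1 FPKM through the reversine libraries and BafA1 3 alone. It is therefore no support for a difference. The rows tested were not matched to the members for level, and the members had a median of 35.1 FPKM in controls. How far level bears on the shares set side by side, here and in the other comparisons, was not tested. By class, 1 of 13 proteases, 3 of 14 glycosidases, 1 of 5 sulfatases and 2 of 8 lipid enzymes or cofactors were called. These calls rest on few libraries. The count was 6, 1 and 4 without reversine 1, 2 or 3 and 1, 3 and 1 without control 1, 2 or 3, and it was 0 when the reversine and control libraries were fitted alone.

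After BafA1 no member passed the threshold. The background was low as well, since 81 of all rows tested (0.264%) were called in this comparison, 62 higher (0.202%) and 19 lower (0.0619%). The members' median log2 difference was 0.11, against 0.14 over all rows tested, and 27 of the 42 were above 0. At an unadjusted p under 0.05 there were 5 members (CTSC, LIPA, NEU1, HEXA and ASAH1), against 2187 rows in all (7.12%). The 3 BafA1 libraries lay above all controls for 12 members and below for 3, beside 15.7% of all rows tested above and 7.42% below (23.1% without overlap). The count of 0 held without any 1 library, and 1 member was called after a correction for GC content and length.

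After MG132 members went both ways, with 12 higher and 6 lower. These 18 members were 42.9% of the 42, while 14.8% of all rows tested were called (7.14% higher and 7.67% lower). The members' median log2 difference was 0.01, against 0.04 over all rows tested, and 21 members lay on each side of 0. The groups did not overlap for 24 members, 14 higher and 10 lower, beside 20.3% of all rows tested above and 13.5% below (33.9% without overlap). By class, 3 proteases rose and 2 fell, 4 glycosidases rose and 2 fell, 3 sulfatases rose and 1 fell, and 2 lipid enzymes or cofactors rose and 1 fell. The count was 23, 11 and 9 without MG132 1, 2 or 3, and 11, 11 and 9 without control 1, 2 or 3. With libraries rescaled by the median ratio over rows, 7 members were higher and 8 lower. Of the 18, 6 were called under every alternative that was run: SCPEP1, GLA, MAN2B1, ASAH1, HEXA and IDS.

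**Figure D2:**
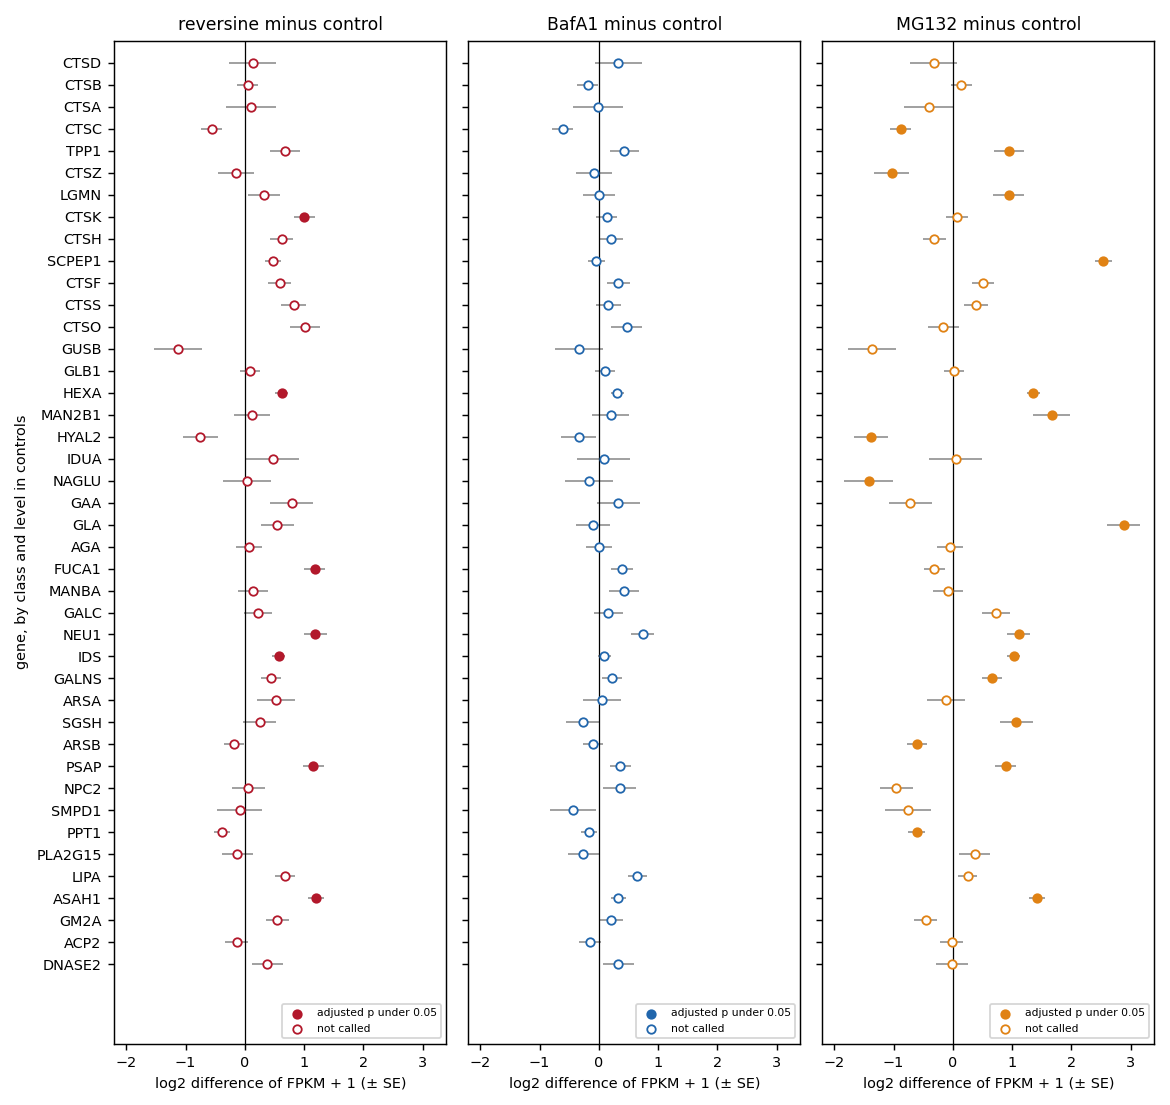
Log2 differences of FPKM + 1 from control (x axis, ± SE) for the 42 members (y axis, by class and level in controls) after reversine, BafA1 and MG132; filled circles have an adjusted p under 0.05. Reversine has 7 filled circles, all to the right of 0, BafA1 has none, and MG132 has 12 to the right and 6 to the left.

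After MG132, 3 of the 8 genes with CACGTG in their promoter window rose (NEU1, SCPEP1, GALNS), 1 fell (ARSB) and 4 were not called (CTSA, CTSD, CTSF, GAA), with a median log2 difference of 0.10. Of the 22 genes with a window and no match, 4 rose, 4 fell and 14 were not called after MG132, with a median of -0.04, beside 7.14% of all rows tested called higher and 7.67% lower. After reversine, 1 of the 8 genes with a match and 2 of the 22 without were called, all higher, with medians of 0.45 and 0.10, beside 2.09% of all rows tested. The other members called have no window: ASAH1, CTSK, HEXA and PSAP after reversine, and ASAH1, HEXA, LGMN, NAGLU, PSAP and SGSH after MG132.

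MG132 libraries also differed in markers of other cells. The summed level of 7 macrophage markers was 14.9 to 28.8 FPKM after MG132 and 16.01 to 18.3 FPKM in controls, with PTPRC at 13.2 and 8.31 FPKM in MG132 2 and 3 and without a call. CSF1R, in the same list, fell to 2.25, 2.01 and 1.84 FPKM after MG132, against 5.95, 4.60 and 5.74 FPKM in controls (-1.08 ± 0.18, adjusted p = 0.00421). The 6 fibroblast markers other than VIM summed to 40.3 to 159 FPKM after MG132 and 51.1 to 61.5 FPKM in controls. Within these, COL3A1 had 71.0 and 23.2 FPKM in MG132 2 and 3 and 7.62 FPKM in control 3, and DCN had 59.3, 21.4 and 8.71 FPKM in the same libraries, and neither was called. COL1A1 fell to 10.5, 9.12 and 9.29 FPKM after MG132, against 20.6, 20.9 and 22.5 FPKM in controls (-1.07 ± 0.20, adjusted p = 0.00769). VIM, which this line expresses strongly, averaged 8528 FPKM after reversine, 15480 after BafA1, 8994 after MG132 and 21380 in controls and was not called after any treatment. Of all marker lists, that of pigment epithelium included, KRT8 (-1.29 ± 0.22, adjusted p = 0.00427), KRT18 (-1.14 ± 0.11, adjusted p = 0.000172), CSF1R and COL1A1 were called after MG132, each lower, and no marker was called after reversine or BafA1. In reversine and BafA1 libraries macrophage markers summed to 17.2 to 18.4 and 19.0 to 21.0 FPKM, and fibroblast markers to 50.9 to 84.1 and 79.0 to 86.9 FPKM. Endothelial markers stayed between 4.87 and 7.17 FPKM in all 12 libraries, and no marker of any list was at 0 in every library of a group. The highest endothelial sum, 7.17 FPKM, was in BafA1 2, the library of lowest relative depth (0.59). Levels this low may follow depth and do not show that a marker was expressed. The part of these markers in the results was not tested. The libraries with many rows at 0, MG132 2 and 3 and control 3, were also set against each other, as were MG132 1 and controls 1 and 2. The log2 differences in these 2 sets were 2.67 and 2.54 for SCPEP1, 3.02 and 2.42 for GLA, -1.31 and -0.49 for CTSZ, 0.72 and 1.14 for LGMN and -1.87 and -0.60 for NAGLU. With a term for these libraries in the fit, the calls of CTSZ, LGMN and NAGLU after MG132 were lost (adjusted p = 0.0872, 0.0749 and 0.0851), as were those of HEXA and IDS after reversine (adjusted p = 0.0501 and 0.0618).

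Proteases were led by CTSD, CTSB and CTSA, and none of these 3 was called after any treatment. CTSD stood at 1426, 3262 and 3437 FPKM after reversine, 3224, 3251 and 2305 after BafA1, 3183, 1423 and 1357 after MG132 and 2432, 2133 and 2329 in controls. CTSB had 481, 701 and 696 FPKM after reversine, 554, 528 and 485 after BafA1, 766, 676 and 545 after MG132 and 566, 539 and 688 in controls. CTSA had 231, 506 and 580.2 FPKM after reversine, 444, 441 and 261 after BafA1, 503, 220.3 and 210.5 after MG132 and 386, 347 and 400.0 in controls. CTSB is a cysteine protease, and CTSA is a carboxypeptidase that also shields GLB1 and NEU1 in a complex. For CTSD and CTSA, reversine 1, BafA1 3, MG132 2 and MG132 3 were the lower libraries of their groups, and each treated group overlapped with controls. Their log2 differences were 0.13 ± 0.39, adjusted p = 0.844 (CTSD after reversine) and -0.40 ± 0.42, adjusted p = 0.474 (CTSA after MG132). Without the 4 libraries whose values fell with GC content, CTSD was higher after reversine by 0.55 (adjusted p = 0.0271), and for MG132, where MG132 1 alone is left, its log2 difference was 0.47.

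SCPEP1, a serine carboxypeptidase, rose after MG132 by the largest amount among the proteases. SCPEP1 stood at 30.4, 32.3 and 35.3 FPKM after reversine, 23.2, 22.8 and 21.8 after BafA1, 149, 137 and 134 after MG132 and 28.02, 21.8 and 20.5 in controls. The MG132 libraries stood far above every other library, with a mean 5.98 times that of controls and a log2 difference of 2.54 ± 0.14, adjusted p = 1.26e-05. After reversine the 3 libraries lay just above the controls (0.47 ± 0.14, adjusted p = 0.155), and BafA1 libraries overlapped with them. TPP1, a tripeptidyl peptidase, and LGMN, an endopeptidase that cleaves after asparagine, rose after MG132 by less. TPP1 stood at 93.8, 145 and 129.6 FPKM after reversine, 112, 119.5 and 78.5 after BafA1, 193, 131 and 125 after MG132 and 76.2, 62.1 and 89.7 in controls. LGMN had 28.7, 58.4 and 64.04 FPKM after reversine, 39.6, 40.8 and 33.8 after BafA1, 80.2, 74.7 and 67.4 after MG132 and 37.6, 33.96 and 42.6 in controls. For both genes all MG132 libraries were above all controls, with log2 differences of 0.95 ± 0.25, adjusted p = 0.0314 (TPP1) and 0.94 ± 0.27, adjusted p = 0.0438 (LGMN). The call of TPP1 was lost without MG132 2, MG132 3, control 1, control 2 or control 3 (adjusted p 0.0526 to 0.0974), and that of LGMN without any 1 of the same libraries (adjusted p 0.0822 to 0.137). Rescaling by the median ratio also ended both calls (adjusted p = 0.145 for TPP1 and 0.125 for LGMN).

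CTSC and CTSZ fell after MG132. CTSC is a dipeptidyl peptidase that activates other proteases in immune cells, and CTSZ is a carboxypeptidase. CTSC stood at 219.9, 236 and 223 FPKM after reversine, 211, 208 and 237 after BafA1, 133, 193 and 234 after MG132 and 307, 338 and 360.0 in controls. Every treated library of CTSC was below every control. The log2 difference was -0.88 ± 0.18, adjusted p = 0.0105 after MG132, -0.56 ± 0.18, adjusted p = 0.196 after reversine and -0.61 ± 0.18, adjusted p = 0.393 after BafA1, where it was the lowest among the members. CTSZ stood at 27.2, 47.2 and 55.05 FPKM after reversine, 47.03, 48.96 and 35.7 after BafA1, 32.4, 17.2 and 18.99 after MG132 and 46.3, 45.3 and 46.4 in controls. For CTSZ all MG132 libraries were below all controls, with a log2 difference of -1.03 ± 0.30, adjusted p = 0.0472, while the other treated groups overlapped with controls. Its call was lost without MG132 2, MG132 3, control 1, control 2 or control 3 (adjusted p 0.0822 to 0.184).

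CTSK, a cysteine protease known for breaking down collagen in bone, was the protease called after reversine. CTSK stood at 85.3, 68.7 and 68.4 FPKM after reversine, 38.5, 35.3 and 46.7 after BafA1, 30.6, 45.5 and 40.04 after MG132 and 34.1, 39.9 and 35.2 in controls. The 3 reversine libraries stood above all others, with a log2 difference of 1.00 ± 0.18, adjusted p = 0.0218, and the BafA1 and MG132 groups overlapped with controls. The call was lost when any 1 of the 6 libraries compared was left out (adjusted p 0.052 to 0.122). CTSO and CTSS, cysteine proteases of low level here, had the 2 highest log2 differences of the members not called after reversine. CTSO stood at 3.62, 1.65 and 1.57 FPKM after reversine, 0.83, 0.84 and 2.09 after BafA1, 0.26, 0.6 and 0.38 after MG132 and 0.5, 0.65 and 0.57 in controls. CTSS had 3.22, 1.88 and 1.70 FPKM after reversine, 0.77, 1.25 and 1.09 after BafA1, 1.16, 1.11 and 1.99 after MG132 and 0.59, 1.15 and 0.76 in controls. All reversine libraries of both genes were above all controls, with log2 differences of 1.01 ± 0.26, adjusted p = 0.0979 (CTSO) and 0.82 ± 0.21, adjusted p = 0.0965 (CTSS). CTSO passed the minimum of 1 FPKM through the reversine libraries and BafA1 3 alone, so its place among the genes tested rests on them. A second row with the symbol CTSO held much the same values (3.21, 2.02 and 1.48 FPKM after reversine, against 0.46, 0.62 and 0.55 FPKM in controls). Reads may be split between such rows.

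CTSF, another cysteine protease, was not called after any treatment, although its 9 treated libraries all lay above the controls. CTSF stood at 6.13, 7.92 and 8.17 FPKM after reversine, 6.16, 6.50 and 5.24 after BafA1, 7.04, 6.19 and 7.44 after MG132 and 4.59, 4.37 and 4.65 in controls. Its log2 difference was 0.59 ± 0.19, adjusted p = 0.213 after reversine, 0.33 ± 0.19, adjusted p = 0.673 after BafA1 and 0.51 ± 0.19, adjusted p = 0.0981 after MG132. CTSH, an aminopeptidase, was the remaining protease, with 48.6 to 62.5 FPKM after reversine, 37.0 to 45.7 after BafA1, 20.2 to 33.5 after MG132 and 33.5 to 36.1 in controls.

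Among the glycosidases GUSB, GLB1 and HEXA had the highest control levels, and their patterns differed. GUSB is the β-glucuronidase that acts on glycosaminoglycans, GLB1 is the β-galactosidase, and HEXA codes for a subunit of the β-hexosaminidase that degrades ganglioside. GUSB stood at 23.7, 54.2 and 59.1 FPKM after reversine, 86.8, 95.5 and 50.8 after BafA1, 55.6, 30.6 and 26.8 after MG132 and 113, 83.1 and 89.6 in controls. GUSB had the lowest log2 difference of the members not called after reversine (-1.13 ± 0.40, adjusted p = 0.265) and after MG132 (-1.37 ± 0.40, adjusted p = 0.0504), with all libraries of both groups below all controls. Without MG132 1, GUSB was called after MG132 (adjusted p = 0.0101). GLB1 had 74.4, 107 and 118 FPKM after reversine, 109.9, 96.04 and 90.9 after BafA1, 103, 88.2 and 90.4 after MG132 and 96.1, 89.6 and 91.2 in controls. The groups of GLB1 overlapped in every comparison with control, and its log2 differences were 0.09, 0.10 and 0.02 after reversine, BafA1 and MG132. HEXA stood at 83.5, 87.3 and 94.05 FPKM after reversine, 70.5, 64.3 and 77.2 after BafA1, 157, 139 and 146 after MG132 and 53.3, 63.1 and 54.6 in controls. HEXA rose after reversine (0.62 ± 0.11, adjusted p = 0.0215) and MG132 (1.36 ± 0.11, adjusted p = 8.9e-05), and after BafA1 its libraries lay above controls without passing the test (0.31 ± 0.11, adjusted p = 0.478). Its call after reversine was lost without reversine 2, reversine 3, control 1 or control 3 (adjusted p 0.0737 to 0.153).

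GLA, the α-galactosidase that removes galactose from glycolipids such as globotriaosylceramide, had the largest rise of all members. GLA stood at 28.9, 22.9 and 21.5 FPKM after reversine, 12.7, 11.97 and 22.4 after BafA1, 87.8, 150.2 and 150.5 after MG132 and 15.04, 16.1 and 17.6 in controls. Every MG132 library was above every other library, and the mean was 7.97 times that of controls (2.88 ± 0.28, adjusted p = 0.000217). After reversine its 3 libraries were slightly above the controls, with 0.55 ± 0.28, adjusted p = 0.439, while BafA1 3 stood above and BafA1 1 and 2 below them. MAN2B1, the α-mannosidase of glycoprotein breakdown, rose after MG132 as well. MAN2B1 stood at 33.3, 65.2 and 62.1 FPKM after reversine, 63.4, 55.5 and 45.5 after BafA1, 226, 136 and 117 after MG132 and 50.2, 39.7 and 53.03 in controls. The MG132 libraries were all above the controls with a wide spread, MG132 1 being the highest, and the log2 difference was 1.67 ± 0.31, adjusted p = 0.00675. The other treated groups of MAN2B1 overlapped with controls.

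NEU1, the sialidase that takes sialic acid off glycans, was called after reversine and MG132 and was the highest of the members not called after BafA1. NEU1 stood at 10.5, 7.79 and 7.88 FPKM after reversine, 5.81, 5.42 and 6.99 after BafA1, 7.92, 8.35 and 8.14 after MG132 and 3.33, 3.14 and 3.20 in controls. All 9 treated libraries were above all controls. The log2 difference was 1.19 ± 0.19, adjusted p = 0.0136 after reversine, 0.74 ± 0.19, adjusted p = 0.308 after BafA1 and 1.11 ± 0.19, adjusted p = 0.00501 after MG132. NEU1 has 8 rows with its symbol, which may share reads, so its level and the size of its rise are uncertain. In the other rows reversine 1 had 3.73 to 4.36 FPKM, and in some of them reversine or MG132 libraries overlapped with controls. The values and tests given for NEU1 are those of the row used, which had the highest mean. Its call after reversine was lost without reversine 2, control 1, control 2 or control 3 (adjusted p 0.0524 to 0.0738), and its call after MG132 was not lost without any 1 library. FUCA1, the α-fucosidase, rose after reversine. FUCA1 stood at 16.3, 21.6 and 23.2 FPKM after reversine, 10.8, 11 and 11.96 after BafA1, 6.67, 6.49 and 6.43 after MG132 and 7.94, 8.95 and 8.14 in controls. Reversine libraries stood above all others and MG132 libraries below all others, with log2 differences of 1.18 ± 0.18, adjusted p = 0.0105 after reversine, 0.39 ± 0.18, adjusted p = 0.482 after BafA1 and -0.31 ± 0.18, adjusted p = 0.231 after MG132. The call after reversine was lost without reversine 2, control 1 or control 3 (adjusted p 0.0561 to 0.061).

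HYAL2 and NAGLU fell after MG132. HYAL2 is a hyaluronidase that is also known at the cell surface, and NAGLU removes N-acetylglucosamine from heparan sulfate. HYAL2 stood at 13.8, 28.8 and 27.03 FPKM after reversine, 33.98, 30.7 and 24.9 after BafA1, 14.8, 17.6 and 10.2 after MG132 and 34.3, 39.5 and 39.8 in controls. Every treated library of HYAL2 was below every control, and the log2 difference was -1.38 ± 0.29, adjusted p = 0.0132 after MG132, -0.75 ± 0.29, adjusted p = 0.333 after reversine and -0.34 ± 0.29, adjusted p = 0.733 after BafA1. The call after MG132 was lost without MG132 3 or control 3 (adjusted p 0.054 to 0.0609). A second row of HYAL2 had 37.3, 30.0 and 40.4 FPKM in controls, and reads may be split between the rows. NAGLU stood at 18.4, 42.9 and 44.3 FPKM after reversine, 32.6, 31.97 and 21.98 after BafA1, 20.4, 9.23 and 7.68 after MG132 and 33.2, 29.7 and 33.3 in controls. For NAGLU the MG132 libraries lay below all controls (-1.42 ± 0.41, adjusted p = 0.0464), and reversine 1 and BafA1 3 stood below the controls while reversine 2 and 3 stood above them. The call of NAGLU was lost without MG132 2, MG132 3, control 1, control 2 or control 3 (adjusted p 0.0822 to 0.177).

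GALC, which takes galactose off galactosylceramide, had the highest log2 difference of the members not called after MG132. GALC stood at 5.77, 4.90 and 4.15 FPKM after reversine, 4.34, 4.05 and 5.62 after BafA1, 5.41, 8.10 and 9.05 after MG132 and 3.48, 4.67 and 4.08 in controls. All 3 MG132 libraries were above all controls (0.73 ± 0.24, adjusted p = 0.0748), and without MG132 1 GALC was called (adjusted p = 0.0119). GAA, the α-glucosidase that degrades glycogen and whose promoter holds the long palindrome at both of its matches, was not called. GAA stood at 18.8, 43.1 and 40.6 FPKM after reversine, 23, 26.8 and 19.5 after BafA1, 16.6, 7.92 and 8.78 after MG132 and 20.6, 14.7 and 19.5 in controls. Its groups overlapped with controls in each comparison, with log2 differences of 0.79, 0.33 and -0.72 after reversine, BafA1 and MG132. The other 3 members of this class, IDUA (α-iduronidase), AGA (an amidase that cleaves asparagine from sugar chains) and MANBA (β-mannosidase), overlapped with controls in all 3 comparisons, and none passed the test.

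Sulfatases take sulfate groups off glycosaminoglycans and lipids, and 4 of the 5 were called after MG132, beside 14.8% of all rows tested. IDS stood at 73.8, 88.2 and 75.03 FPKM after reversine, 54.7, 56.8 and 57.6 after BafA1, 117, 112 and 98.9 after MG132 and 52.2, 55.2 and 50.9 in controls. IDS, which acts on iduronate sulfate in dermatan and heparan sulfate, rose after reversine (0.57 ± 0.11, adjusted p = 0.0291) and MG132 (1.03 ± 0.11, adjusted p = 0.000325). Reversine and MG132 libraries were all above the controls, and BafA1 libraries overlapped with them. The call after reversine was lost without reversine 2, reversine 3, control 1, control 2 or control 3 (adjusted p 0.058 to 0.197), and also with median-ratio scaling (adjusted p = 0.244). A second row of IDS had 15.1 to 26.9 FPKM in controls, and with both rows summed IDS was not called after reversine (adjusted p = 0.125).

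GALNS, the sulfatase of keratan sulfate, and SGSH, which removes sulfate from heparan sulfate, rose after MG132. GALNS stood at 20.1, 24.8 and 27.4 FPKM after reversine, 22.5, 20.9 and 17.9 after BafA1, 31.8, 27.3 and 25.4 after MG132 and 17.9, 16.5 and 17.6 in controls. SGSH had 9.96, 18.6 and 17.4 FPKM after reversine, 10.9, 10.9 and 8.35 after BafA1, 37.4, 21.8 and 23.5 after MG132 and 12.1, 11.8 and 12.9 in controls. All MG132 libraries of both genes were above all controls, with log2 differences of 0.66 ± 0.17, adjusted p = 0.0264 (GALNS) and 1.07 ± 0.28, adjusted p = 0.0317 (SGSH). The highest value of each gene was in MG132 1. The call of GALNS was lost without MG132 2, MG132 3, control 1, control 2 or control 3 (adjusted p 0.0661 to 0.095), and that of SGSH without any 1 of the same libraries (adjusted p 0.0558 to 0.0948). Median-ratio scaling ended both as well (adjusted p = 0.289 for GALNS and 0.13 for SGSH). ARSB, which acts on dermatan sulfate, fell after MG132. ARSB stood at 9.47, 11.4 and 9.47 FPKM after reversine, 11.6, 9.98 and 10.8 after BafA1, 7.32, 7.81 and 6.95 after MG132 and 10.9, 12.04 and 12 in controls. The MG132 libraries were below all others (-0.60 ± 0.17, adjusted p = 0.0414), a call lost without MG132 2, MG132 3, control 1, control 2 or control 3 (adjusted p 0.0822 to 0.133). ARSA, the sulfatase of sulfatide, was not called after any treatment. ARSA stood at 15.5, 30.1 and 27.6 FPKM after reversine, 19.3, 16.9 and 14.4 after BafA1, 23.6, 11.8 and 11.4 after MG132 and 16.4, 15.4 and 16.6 in controls. Each treated group of ARSA overlapped with controls, and within it reversine 1, BafA1 3, MG132 2 and MG132 3 were the lower libraries.

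ASAH1, the acid ceramidase that splits ceramide into sphingosine and fatty acid, had the smallest adjusted p of the members after reversine. ASAH1 stood at 69.3, 72.5 and 60.2 FPKM after reversine, 35.8, 32.7 and 41.1 after BafA1, 71.8, 78.6 and 85.96 after MG132 and 30.2, 28.1 and 27.8 in controls. Reversine and MG132 libraries stood well above the BafA1 libraries, which in turn stood above the controls. The log2 difference was 1.2 ± 0.13, adjusted p = 0.00205 after reversine, 1.42 ± 0.13, adjusted p = 0.000156 after MG132 and 0.33 ± 0.13, adjusted p = 0.478 after BafA1. The call after reversine held without any 1 library and ended when the 2 groups were fitted alone (adjusted p = 0.0979). PSAP stood at 1759, 2691 and 2684 FPKM after reversine, 1394, 1365 and 1299 after BafA1, 2450.2, 1792 and 1700.4 after MG132 and 1068, 1005 and 1082 in controls. All 9 treated libraries of PSAP were above all controls. It rose after reversine (1.15 ± 0.18, adjusted p = 0.0113) and MG132 (0.89 ± 0.18, adjusted p = 0.00946), and its BafA1 libraries were above the controls without passing the test (0.36 ± 0.18, adjusted p = 0.526). The call after reversine was lost without reversine 2, control 1, control 2 or control 3 (adjusted p 0.0523 to 0.0566). Median-ratio scaling ended both calls of PSAP (adjusted p = 0.0566 after reversine and 0.12 after MG132).

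**Figure D3:**
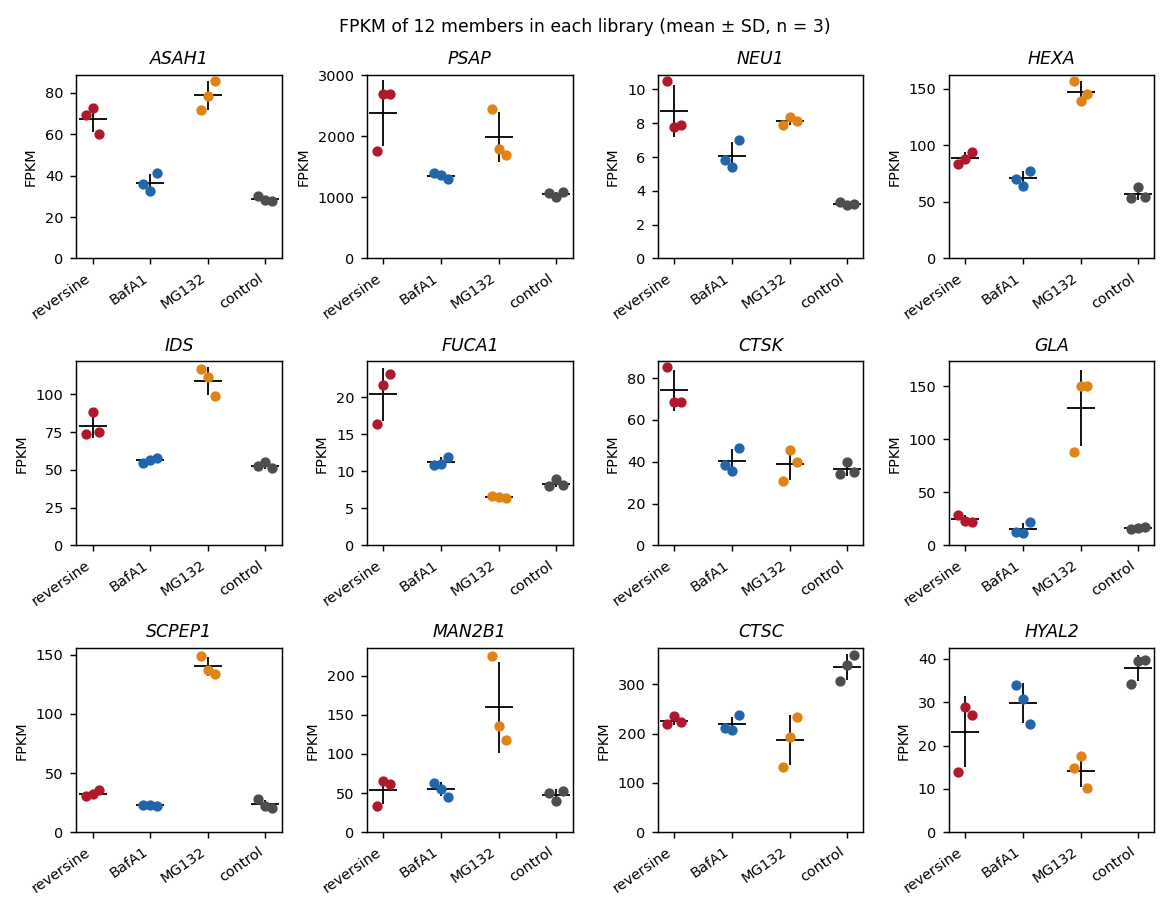
FPKM (y axes, each starting at 0) of 12 members in every library, with the mean and SD of each group of 3; groups run from reversine through BafA1 and MG132 to control. ASAH1, PSAP, NEU1, HEXA and IDS are higher after reversine and MG132, FUCA1 and CTSK after reversine, GLA, SCPEP1 and MAN2B1 after MG132, and all treated libraries of CTSC and HYAL2 lie below the controls.

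LIPA, the acid lipase that frees cholesterol from its esters, was not called but had all libraries above the controls after both reversine and BafA1. LIPA stood at 57.3, 62.4 and 48.02 FPKM after reversine, 51.01, 48.5 and 64.6 after BafA1, 34.1, 43.2 and 46.6 after MG132 and 35.1, 33.4 and 34.5 in controls. The log2 difference was 0.68 ± 0.17, adjusted p = 0.0835 after reversine, 0.65 ± 0.17, adjusted p = 0.288 after BafA1 and 0.25 ± 0.17, adjusted p = 0.309 after MG132. NPC2, which carries cholesterol to the lysosomal membrane, and SMPD1, the acid sphingomyelinase, had high levels and no call. NPC2 stood at 309.8, 594 and 656 FPKM after reversine, 617, 625 and 575 after BafA1, 335, 207 and 212 after MG132 and 445, 428 and 562 in controls. SMPD1 had 48.5, 118 and 105 FPKM after reversine, 72.4, 77.2 and 51.8 after BafA1, 87.2, 39.7 and 43.2 after MG132 and 87.5, 76.9 and 108 in controls. All MG132 libraries of NPC2 were below all controls (-0.95 ± 0.28, adjusted p = 0.0535), and without MG132 1 NPC2 was called (adjusted p = 0.0103). SMPD1 overlapped with controls after each treatment, with the lowest value of its reversine group in reversine 1 and of its BafA1 group in BafA1 3. Its log2 difference was -0.43 ± 0.39, adjusted p = 0.733 after BafA1.

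PPT1, which takes palmitate off proteins, fell after MG132. PPT1 stood at 41.01, 41.4 and 38.5 FPKM after reversine, 45.5, 42.5 and 53.3 after BafA1, 31.1, 39.6 and 33.3 after MG132 and 49.5, 51.3 and 58.7 in controls. MG132 and reversine libraries were below all controls, with log2 differences of -0.61 ± 0.14, adjusted p = 0.0179 after MG132 and -0.39 ± 0.14, adjusted p = 0.266 after reversine, and BafA1 libraries overlapped with controls. The call after MG132 was lost without MG132 3 or control 3 (adjusted p 0.0822 to 0.0901). Of the remaining lipid proteins, GM2A, the cofactor that lifts ganglioside to hexosaminidase, had 7.89 to 9.40 FPKM after reversine, 5.91 to 7.78 after BafA1, 3.08 to 4.39 after MG132 and 5.46 to 5.69 in controls. PLA2G15, a phospholipase, overlapped with controls throughout. ACP2, an acid phosphatase, and DNASE2, which degrades DNA taken up with dead cells, were the last 2 members. ACP2 stood at 30.3, 47.6 and 46.6 FPKM after reversine, 41.4, 43.8 and 36.1 after BafA1, 49.97, 42.6 and 40.6 after MG132 and 50.3, 41.5 and 42.9 in controls. DNASE2 had 25.2, 49.1 and 50.1 FPKM after reversine, 40.2, 39.1 and 35.4 after BafA1, 37.7, 30.7 and 23.2 after MG132 and 28.7, 32.04 and 29.7 in controls. Neither was called, and the groups overlapped with controls except for DNASE2 after BafA1 (0.33 ± 0.27, adjusted p = 0.733), where all 3 libraries were above.

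Treatments were also compared with each other. Reversine against BafA1 gave 1 call, ASAH1, which was higher after reversine (0.87 ± 0.13, adjusted p = 0.0145), beside 1.23% of all rows tested (0.443% higher and 0.785% lower). The members' median log2 difference was 0.25 and that of all rows -0.14. The call of ASAH1 was lost without reversine 2, BafA1 1 or BafA1 2 (adjusted p 0.0593 to 0.0717) and when the 2 groups were fitted alone (adjusted p = 0.347). All reversine libraries were above all BafA1 libraries for 11 members and below for 1, beside 4.08% of all rows tested above and 7.83% below (11.9% without overlap).

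Reversine against MG132 gave 11 calls (26.2% of the members), beside 6.51% of all rows tested (3.52% higher and 2.99% lower). Higher after reversine than after MG132 were CTSK (0.93 ± 0.18, adjusted p = 0.0148), CTSH (0.94 ± 0.20, adjusted p = 0.023), CTSO (1.17), FUCA1 (1.49 ± 0.18, adjusted p = 0.00131), GAA (1.52) and GM2A (1.00). Lower after reversine than after MG132 were GLA (-2.33 ± 0.28, adjusted p = 0.00133), SCPEP1 (-2.07 ± 0.14, adjusted p = 5.76e-05), MAN2B1 (-1.56), HEXA (-0.73) and IDS (-0.46). Calls were lost for CTSK without MG132 3 (adjusted p = 0.0621), for CTSH without reversine 2, reversine 3 or MG132 2 (adjusted p 0.0502 to 0.0728) and for CTSO without reversine 2, MG132 2 or MG132 3 (adjusted p 0.0537 to 0.101). They were also lost for GAA without reversine 2, reversine 3, MG132 2 or MG132 3 (adjusted p 0.133 to 0.158), for GM2A without reversine 2 (adjusted p = 0.0764), for MAN2B1 without MG132 2 (adjusted p = 0.0564) and for IDS without reversine 1, reversine 3, MG132 2 or MG132 3 (adjusted p 0.055 to 0.189). A term for the libraries with many rows at 0 ended the calls of CTSO, GAA and IDS (adjusted p = 0.093, 0.21 and 0.0763). CTSO, moreover, passed the minimum of 1 FPKM through the reversine libraries and BafA1 3 alone, so its call here is no support for a difference. FUCA1, GLA, HEXA and SCPEP1 kept their calls without any 1 library, and GLA and SCPEP1 kept theirs under every alternative. With median-ratio scaling the split was 9 higher and 2 lower, and that scaling moved the median of all rows to 0.235. Of the 5 members that rose after both reversine and MG132, HEXA and IDS were thus called between these treatments, and ASAH1, NEU1 and PSAP were not, at log2 differences of -0.22, 0.08 and 0.26. Missing the threshold does not show that their levels were equal.

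BafA1 against MG132 gave 9 calls (21.4% of the members), beside 10.9% of all rows tested (6.37% higher and 4.49% lower). FUCA1 (0.70 ± 0.18, adjusted p = 0.0356) and NPC2 (1.30 ± 0.28, adjusted p = 0.018) were higher after BafA1 than after MG132. The 7 that were lower after BafA1 than after MG132 were GLA (-2.98 ± 0.28, adjusted p = 0.000208), SCPEP1 (-2.58 ± 0.14, adjusted p = 1.16e-05), MAN2B1 (-1.48), SGSH (-1.34), ASAH1 (-1.09), HEXA (-1.05) and IDS (-0.94). GLA, SCPEP1, ASAH1, HEXA and IDS were called under every alternative. Calls were lost for FUCA1 without BafA1 1, BafA1 2, BafA1 3, MG132 2 or MG132 3 (adjusted p 0.0935 to 0.114) and for NPC2 without BafA1 1, BafA1 2, MG132 2 or MG132 3 (adjusted p 0.066 to 0.0779). They were also lost for MAN2B1 without BafA1 2 or BafA1 3 (adjusted p 0.0503 to 0.0546) and for SGSH without BafA1 3 (adjusted p = 0.0523). The term for libraries with many rows at 0 ended the calls of FUCA1 and NPC2 (adjusted p = 0.107 and 0.106). With median-ratio scaling the split was 7 higher and 5 lower, and the median of all rows was 0.192.

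Libraries of one group differed among members by the GC content of the transcript. GC content and length could be had for 41 members, with GC from 41.6% to 68.6% (median 54.5%). Among the 19 members with at least 55% GC, reversine 1 was the lowest library of its group in 19, with a median log2 difference of -0.91 from the other 2 libraries. For the 12 members under 50% GC that median was 0.05. BafA1 3 was the lowest of its group in all 19, at a median of -0.36, against 0.26 in the 12. MG132 1 was the highest of its group in 17 of the 19, at a median of 0.70, against -0.22 in the 12. Across the 41 genes, which share their libraries and are not independent replicates, Pearson's r with GC content was -0.75, -0.76 and 0.74 in these 3 contrasts. The 7 members called after reversine had a median GC of 51.5% (43.8% to 55.4%), and the 34 not called that have a value had 55.5%. With a correction for GC content and length, 11 members were called after reversine, 1 after BafA1 and 22 after MG132.

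**Figure D4:**
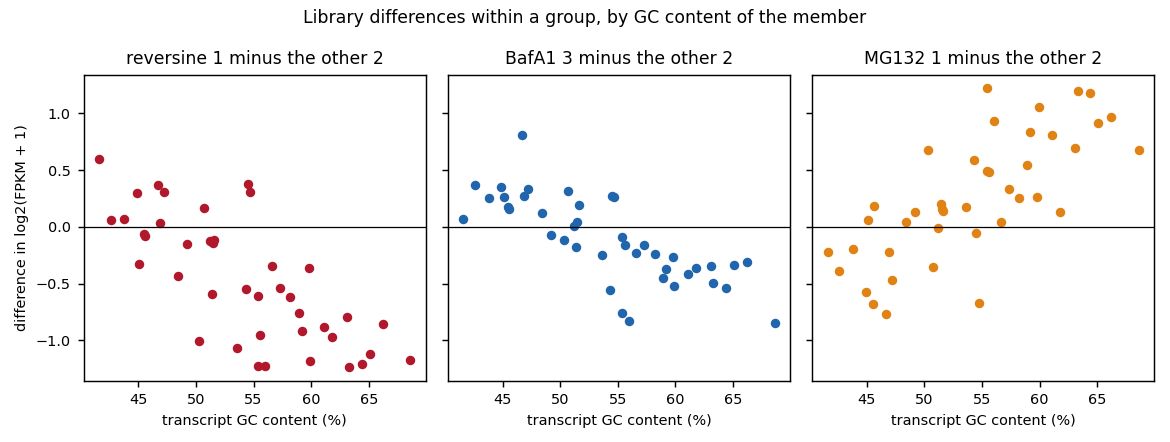
Difference in log2(FPKM + 1) of 1 library from the mean of the other 2 of its group (y axis) against the GC content of the transcript in percent (x axis), 1 point for each of 41 members. Points fall with GC content for reversine 1 and BafA1 3 and climb for MG132 1, with r of -0.75, -0.76 and 0.74.

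The machinery that tags and sorts these enzymes was described from a list of 12 genes, all tested. CLN6, a protein of the endoplasmic reticulum that helps enzymes leave it, was the gene of this list called after reversine. CLN6 stood at 14.9, 15.8 and 16.8 FPKM after reversine, 31.3, 26.02 and 27.1 after BafA1, 14.4, 13.01 and 12.1 after MG132 and 41.5, 36.4 and 39.97 in controls. All treated libraries were below all controls, and the log2 difference was -1.26 ± 0.14, adjusted p = 0.00219 after reversine, -0.47 ± 0.14, adjusted p = 0.409 after BafA1 and -1.51 ± 0.14, adjusted p = 0.000165 after MG132. IGF2R, the larger mannose phosphate receptor, and SCARB2, the receptor that carries β-glucocerebrosidase, rose after MG132. IGF2R stood at 49.8, 56.02 and 54.3 FPKM after reversine, 39.1, 43.8 and 34.5 after BafA1, 126, 111 and 106 after MG132 and 39.9, 39.7 and 43.9 in controls. SCARB2 had 70.9, 46.6 and 35.2 FPKM after reversine, 43.7, 37.6 and 59.2 after BafA1, 54.5, 81.6 and 91.1 after MG132 and 37.6, 35.1 and 29.8 in controls. The MG132 libraries of IGF2R stood far above all others (1.45 ± 0.12, adjusted p = 0.000107), and those of SCARB2 were above all controls (1.10 ± 0.29, adjusted p = 0.0332). After BafA1 none of the 12 was called, the smallest p-values being those of CLN6 and SCARB2 (0.42 ± 0.29, adjusted p = 0.733).

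Of 24 other lumenal proteins, 23 were tested, and none was called after reversine or BafA1. The smallest p-values after reversine were those of CREG1 (0.83 ± 0.21, adjusted p = 0.0919) and CTBS (1.28 ± 0.35, adjusted p = 0.12), and after BafA1 those of CTSL (-0.44 ± 0.16, adjusted p = 0.478) and HYAL1 (0.33 ± 0.12, adjusted p = 0.478). After MG132, 5 rose and 1 fell. CTSL, an abundant cysteine protease, had 212, 196 and 179 FPKM after MG132, against 118, 122 and 116 FPKM in controls (0.71 ± 0.16, adjusted p = 0.0148). PLBD2 (1.44 ± 0.24, adjusted p = 0.00371), CTBS (1.64 ± 0.35, adjusted p = 0.0129), EPDR1 (1.26 ± 0.31, adjusted p = 0.0247) and CREG1 (0.83 ± 0.21, adjusted p = 0.0269) rose too, and their MG132 libraries were all above the controls. Of 4 cystatins, inhibitors of cysteine cathepsins, 2 were tested. CST3 fell to 206, 107 and 109 FPKM after MG132, against 412, 391 and 457 FPKM in controls (-1.64 ± 0.39, adjusted p = 0.0216), and CSTB was not called after any treatment (0.33 ± 0.18, adjusted p = 0.457 after reversine and -0.12 ± 0.18, adjusted p = 0.808 after BafA1).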

How the data were processed

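RNA selected with oligo(dT) was sequenced as 50 nt reads, per the labels' protocols. Per the submitters' processing notes, the tools were RSEM 1.2.6 and Bowtie 1.0.0 and the build was GRCh37 (hg19). The deposited values were taken as FPKM because column totals differed between libraries; the header names no unit, and 0 columns belong to other series. Strand use is not given in the sources used here, so overlapping and antisense genes cannot be told apart from members. Short transcripts listed at 0 and GC trends differ between libraries and could shift FPKM.

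Differences were tested with limma 3.58.1 (trend, R 4.3.3) on log2(FPKM + 1), 2-sided, for 30712 of 53361 rows that reached 1 FPKM in 3 or more libraries, in 1 fit of the 4 groups with 8 residual and 1.26 prior degrees of freedom, and called at a Benjamini-Hochberg adjusted p under 0.05 over all rows. Adding 1 makes log2 differences of low genes smaller than the ratio of their means. The fit was run on simulated data with independent noise in each row. Those data held no GC trends and no libraries with many rows at 0, so the run does not cover these. GC content and length came from GENCODE (82.7% of rows tested) and promoters from RefSeq GRCh38.p14, while the files use GRCh37; windows were matched by symbol. Replicate numbers follow the order of the records. Members and lists were chosen with earlier results of these data known. Values in every library and tests are given for members called against control, for the 3 highest of each class in controls, and for the 2 highest and 2 lowest not called; direct comparisons name called members, and further lists name called genes or, with none, the 2 of smallest p, except for 1 called gene that is not reported here. Members named beyond that (GAA, CTSH, GM2A and others by range) are there because they complete a class or are called between treatments. Alternatives were other offsets, filters and scaling, correction for GC content and length, single libraries left out and pairs of groups fitted alone.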

Additional observations from a re-analysis of the deposited data

How the results depend on the processing

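No paired analysis was possible because the labels give no replicate numbers, and the numbers used here follow the order of the records. Leaving out single libraries gave 1 to 6 members called after reversine, 0 after BafA1, 9 to 23 after MG132, 0 to 3 for reversine against BafA1, 6 to 17 for reversine against MG132 and 6 to 19 for BafA1 against MG132. The count for reversine (7) became 4 with median-ratio scaling, 11 with a correction for GC content and length and 0 when its 2 groups were fitted alone. That for MG132 (18) became 9 in the fit of 2 groups alone. The count of 0 for BafA1 became 1 with the GC correction. Reversine against BafA1 (1) gave 3 with log2(FPKM + 0.1), 3 with a minimum of 5 FPKM, 4 with the GC correction and 0 with 2 groups alone. Reversine against MG132 (11) gave 2 with 2 groups alone, and BafA1 against MG132 (9) gave 17 with the GC correction.

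Further alternatives were chosen after seeing the data. Rows of at least 500 nt gave 11 for reversine, 1 for BafA1, 3 for reversine against BafA1 and 19 for BafA1 against MG132. Summing the rows of a symbol gave 2 for reversine against BafA1. The labels name no batch. A term for the 3 libraries with many rows at 0 gave 5, 0, 15, 1, 8 and 7 calls in the order of the comparisons above. That term, the GC correction and the length minimum together gave 18, 1, 11 and 21 in the comparisons named for the length minimum. In that combination ARSA turned to 0.55 for MG132 against control (main value -0.12) and to -0.51 for BafA1 against MG132 (main value 0.18). CTSD for MG132 against control was 0.47 without the libraries that fall with GC content (main value -0.32), where MG132 1 alone is left and the spread comes from the other groups. The cause of these changes was not tested. Over single members and alternatives, calls held in 77 of 119 values after reversine and 239 of 306 after MG132. Members not called passed the threshold with the sign of the main fit in 23 of 590, 3 of 709 and 27 of 403 values for reversine, BafA1 and MG132. A further 2 of the 403 values, those of ARSA and CTSD given above, were counted apart because their sign was reversed. Read counts are unknown, so how far depth limits the members of lowest level, CTSO and CTSS, was not tested.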
